A study of Homo sapiens with 6 samples.

Results

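The 9 genes described here mark the intestinal lineage, and they were taken by name from the 20020 genes of the count table. They are the transcription factors CDX1, CDX2, HNF4A, KLF4, KLF5 and SOX9, the receptor EPHB2, and the structural proteins VIL1 (villin) and KRT20 (keratin 20). RNA-seq was performed in HCT116, a human colorectal carcinoma cell line, 24 h after irradiation (IR) with 8 Gy. CAD-KO+IR denotes cells in which CAD, the caspase-activated DNase encoded by DFFB, was targeted by a guide RNA in lentiCRISPRv2, and sgVec+IR denotes the vector control, with 3 libraries in each group. All 6 libraries came from irradiated cells, and the labels do not say which guide or how many knockout lines were used. The loss of CAD and other differences between the knockout and control cells cannot be told apart. Nothing in the labels says whether the 3 libraries of a group were separate cultures, so the p-values measure the spread between these libraries, which may be technical.

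The intestinal epithelium is renewed from stem cells at the crypt base, and their progeny differentiate as they move up. SOX9 and EPHB2 mark the lower crypt, where Wnt signaling is high, and KLF5 accompanies proliferation. KLF4 and keratin 20 are found mainly in cells that have left the cycle, and villin is a protein of the brush border. CDX1, CDX2 and HNF4A set intestinal identity and drive enterocyte genes, and colorectal carcinomas keep or lose these factors to different degrees.

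Sequences upstream of the transcription start are shown for CDX2 and KRT20, which went opposite ways in 1 control library, and for the 2 starts of HNF4A, which a count per gene cannot separate. Each is the 250 bases before a RefSeq start on GRCh38.p14, written 5′ to 3′ on the strand of the gene. The CDX2 window is chr13:27969316-27969565 on the minus strand and the KRT20 window is chr17:40885243-40885492 on the minus strand. The HNF4A windows are chr20:44355449-44355698 (start 1) and chr20:44400989-44401238 (start 2) on the plus strand. Capitals mark TTTAT on either strand, a core of the sites that CDX proteins bind.
CDX2: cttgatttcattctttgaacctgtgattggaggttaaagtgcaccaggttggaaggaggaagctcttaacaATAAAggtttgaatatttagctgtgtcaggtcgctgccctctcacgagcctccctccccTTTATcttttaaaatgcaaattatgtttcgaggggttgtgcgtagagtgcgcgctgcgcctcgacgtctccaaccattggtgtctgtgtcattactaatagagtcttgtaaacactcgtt
KRT20: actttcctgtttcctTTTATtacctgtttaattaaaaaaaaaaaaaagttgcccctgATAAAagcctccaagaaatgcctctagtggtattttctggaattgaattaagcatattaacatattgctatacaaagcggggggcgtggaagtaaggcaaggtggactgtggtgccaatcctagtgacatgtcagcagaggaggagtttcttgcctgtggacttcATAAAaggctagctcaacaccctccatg
HNF4A start 1: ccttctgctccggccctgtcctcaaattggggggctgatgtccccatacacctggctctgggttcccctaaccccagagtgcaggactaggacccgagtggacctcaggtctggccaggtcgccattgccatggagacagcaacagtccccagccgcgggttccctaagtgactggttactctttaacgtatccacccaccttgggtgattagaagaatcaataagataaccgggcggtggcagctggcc
HNF4A start 2: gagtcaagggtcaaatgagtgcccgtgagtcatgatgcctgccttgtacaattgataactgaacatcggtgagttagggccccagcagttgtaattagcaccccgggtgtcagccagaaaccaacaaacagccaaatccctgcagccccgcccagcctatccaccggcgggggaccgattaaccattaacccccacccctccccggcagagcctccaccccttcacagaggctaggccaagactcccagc
The motif occurred 2 times in the CDX2 window, 3 times in the KRT20 window and not in the HNF4A windows, and 32.7% of 35114 windows of this length held it. A KLF5 window that is not shown also held it, 1 time. The HNF4 motif CAAAGTCCA occurred in none of the 9 windows of the 6 lineage genes that could be matched, against 0.325% of all windows. A match of these letters is a description of the sequence and does not show a bound site. The CDX2 window held 10 CpG dinucleotides, the KRT20 window 2, and the windows of EPHB2 42 and 41.

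Counts per library ran from 14032994 to 19574144. Every CAD-KO+IR library (lowest 17467718) was deeper than every sgVec+IR library (highest 16311694), and raw counts are not scaled for this. The library of sgVec+IR replicate 3 stood apart. In it 7561 genes had no count (4577 to 5232 in the other libraries), and its log2 CPM correlated with theirs at 0.886 to 0.927 across genes, where the other 5 gave 0.954 to 0.993 among themselves. CPM denotes read counts scaled by library size with TMM factors. DFFB, the targeted gene, had 185, 192 and 217 counts in CAD-KO+IR and 357, 335 and 297 in sgVec+IR, so it was lower in each knockout library but not absent. It was at 10.8 ± 1.32 CPM in CAD-KO+IR and 21.9 ± 0.995 CPM in sgVec+IR (SD, n = 3 each). Its log2 fold change was −1.02 (SE 0.193, adjusted p = 0.550, quasi-likelihood test in edgeR). DFFB was called by DESeq2 (−1.01, adjusted p = 0.00169) and by voom with sample weights (−0.92, adjusted p = 0.0001345). It was not called in the other 14 of 16 alternatives, with adjusted p from 0.108 (edgeR without sgVec+IR replicate 3) to 0.9999 (edgeR with a replicate block). Of 13 epithelial markers 12 passed the filter on low counts, and EPCAM was at 246 ± 34.2 CPM in CAD-KO+IR and 272 ± 57.4 CPM in sgVec+IR (SD, n = 3 each). CDH17, the intestinal cadherin, was the exception with at most 15 counts in any library. Of 15 markers of blood, endothelium, stroma, liver and neurons, 6 had at most 3 counts in each library, 3 of them none in any. Their summed level ran from 27.1 to 42.2 CPM in CAD-KO+IR and from 18.1 to 54.0 CPM in sgVec+IR, lowest in sgVec+IR replicate 3, and most of it was COL1A1 (34.1 ± 7.47 and 33.9 ± 20.1 CPM, with 10.9 CPM in sgVec+IR replicate 3). The part of these markers in the results was not tested.

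Levels of the lineage genes spanned from the upper range of the transcriptome to no signal at all. SOX9 was the highest per length at 40.4 ± 0.593 CPM per kilobase of exon in CAD-KO+IR and 32.5 ± 5.83 in sgVec+IR (SD, n = 3 each), above 94.6% of 19823 genes in its mean. KLF5 followed with 30.9 ± 5.48 and 21.9 ± 4.15 CPM per kilobase. Then came KLF4 at 6.71 ± 0.374 and 6.71 ± 0.996, CDX2 at 4.44 ± 0.755 and 4.48 ± 2.78, EPHB2 at 2.97 ± 0.427 and 3.01 ± 1.87, and HNF4A at 1.96 ± 0.275 and 1.37 ± 0.619 CPM per kilobase. CDX2 and HNF4A, the factors of intestinal identity, thus lay well below SOX9 and KLF5. KRT20 lay lower, at 0.403 ± 0.156 and 0.860 ± 0.792 CPM per kilobase, and VIL1 and CDX1 were at or near 0. The ranges of KLF5 and KLF4 did not overlap in either group, nor did those of KRT20 and VIL1. The ranges of every other pair of neighbors in this order overlapped in sgVec+IR. In CAD-KO+IR the ranges of these pairs were apart, except those of VIL1 and CDX1. In sgVec+IR replicate 3 alone the order was different, with KLF5 (26.6) beside SOX9 (25.8) and KRT20 (1.76) above CDX2 (1.27), EPHB2 (0.851) and HNF4A (0.675 CPM per kilobase).

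**Figure D1:**
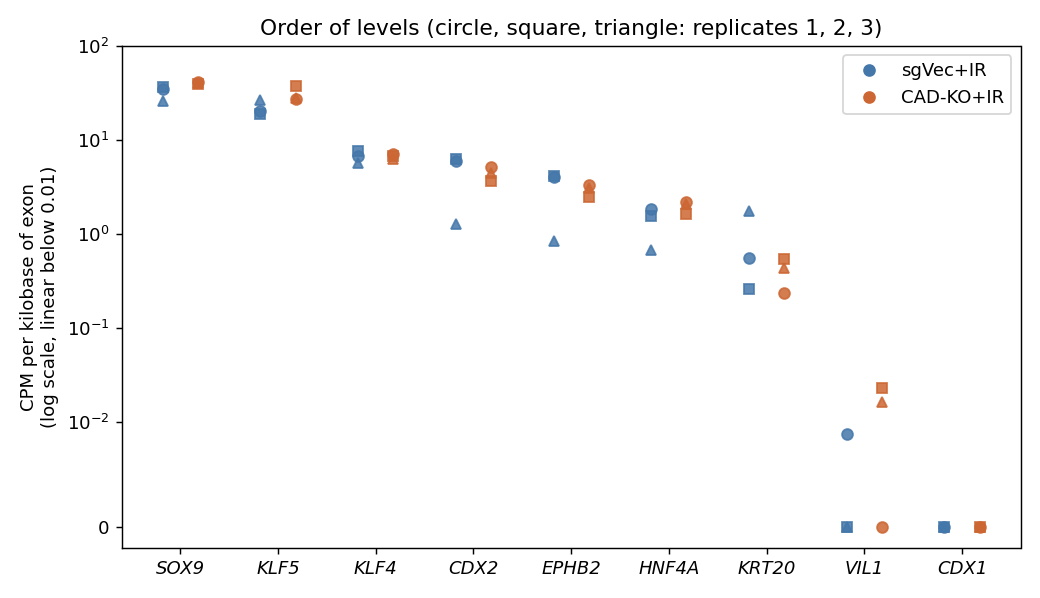
Level of each lineage gene in each library, in CPM per kilobase of exon on an axis that is logarithmic above 0.01 and linear below it; blue points are sgVec+IR and orange points CAD-KO+IR, with a marker shape for each replicate. SOX9 and KLF5 lie highest, VIL1 and CDX1 at or near 0, and the blue triangle (sgVec+IR replicate 3) lies below the other points for CDX2, EPHB2 and HNF4A and above them for KRT20.

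Among the caudal homeobox factors, CDX1 (ENSG00000113722.18, chromosome 5, 150166795 to 150184558 on GRCh38) had 0 counts in all 6 libraries. With 3 counts as the limit that a count of 0 allows, its level was under 0.0546 CPM in CAD-KO+IR and under 0.0665 CPM in sgVec+IR, counting error only. CDX2 (ENSG00000165556.10, chromosome 13, 27962137 to 27971139) was detected in every library. Its level was 21.4, 15.2 and 18.3 CPM in CAD-KO+IR replicates 1 to 3 and 24.5, 25.6 and 5.22 CPM in sgVec+IR replicates 1 to 3. All CAD-KO+IR libraries thus lay below sgVec+IR replicates 1 and 2 and above replicate 3. For CDX2 the log2 fold change was −0.02 (SE 0.512, adjusted p = 0.9999, edgeR), and without sgVec+IR replicate 3 it was −0.45 (SE 0.185, adjusted p = 0.414, edgeR). A bulk library cannot tell fewer cells that express a gene from less RNA per cell.

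HNF4A (ENSG00000101076.20, chromosome 20, 44355700 to 44434596), a nuclear receptor of liver and gut epithelium, was counted 293, 229 and 265 times in CAD-KO+IR and 223, 167 and 70 times in sgVec+IR. On the CPM scale this is 15.9, 12.1 and 15.1 against 13.6, 11.4 and 4.94. The groups overlapped through sgVec+IR replicate 1. Its log2 fold change was 0.51 (SE 0.361, adjusted p = 0.9999, edgeR), and 0.19 (SE 0.197, adjusted p = 0.617, edgeR) without sgVec+IR replicate 3, a smaller difference. In GENCODE 3 other annotated genes overlap HNF4A, among them the antisense RNA HNF4A-AS1, and the strand setting of the counting is not given in the sources used here.

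KLF5 (ENSG00000102554.14, chromosome 13, 73054976 to 73077542), a zinc finger activator, had the lowest unadjusted p of the 7 tested lineage genes. Its level was 107, 145 and 109 CPM in CAD-KO+IR replicates 1 to 3 and 78.8, 73.2 and 104 CPM in sgVec+IR replicates 1 to 3. Every CAD-KO+IR library was above every sgVec+IR library, although CAD-KO+IR replicate 1 exceeded sgVec+IR replicate 3 only narrowly. The log2 fold change was 0.50 (SE 0.211, unadjusted p = 0.0506, adjusted p = 0.9999, edgeR). Without sgVec+IR replicate 3 it was 0.66 (SE 0.174, unadjusted p = 0.00556, adjusted p = 0.311, edgeR), past the fold change of 1.5 but not the adjusted threshold. With p left unadjusted, that fit without the library called 6.48% of all genes tested.

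SOX9 (ENSG00000125398.8, chromosome 17, 72121020 to 72126420) was the most even of the lineage genes within CAD-KO+IR, at 162, 157 and 159 CPM. In sgVec+IR it was at 139, 144 and 102 CPM, so these groups did not overlap either. For SOX9 the log2 fold change was 0.32 (0.315, SE 0.177, adjusted p = 0.9999, edgeR), and 0.18 (SE 0.118, adjusted p = 0.490, edgeR) without sgVec+IR replicate 3. The antisense gene SOX9-AS1 overlaps SOX9 in GENCODE.

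KLF4 (ENSG00000136826.15, chromosome 9, 107484852 to 107490482), the related zinc finger factor of differentiated cells, was at 25.7, 24.9 and 23.1 CPM in CAD-KO+IR and 24.9, 28.0 and 20.7 CPM in sgVec+IR. The CAD-KO+IR libraries fell inside the range of the controls. Its log2 fold change was 0.00 (0.001, SE 0.191, adjusted p = 0.9999, edgeR). The ratio of KLF5 to KLF4 counts, which does not depend on the scaling of libraries, was 4.15, 5.82 and 4.73 in CAD-KO+IR and 3.17, 2.61 and 4.99 in sgVec+IR. The mean log2 ratio of KLF4 to KLF5 was −2.28 ± 0.247 in CAD-KO+IR and −1.79 ± 0.479 in sgVec+IR (SD, n = 3 each, p = 0.3 in a two-sided exact permutation test whose smallest possible p is 0.1). The difference of −0.49 became −0.75 without sgVec+IR replicate 3 (exact permutation p = 0.1) and −0.29 without replicate 2 (exact permutation p = 0.5). CDX1 had no count, so its ratio to CDX2 was not computed.

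EPHB2 (ENSG00000133216.17, chromosome 1, 22710839 to 22921500), a receptor tyrosine kinase that positions cells along the crypt, was at 41.5, 31.2 and 38.8 CPM in CAD-KO+IR and 50.8, 51.6 and 10.7 CPM in sgVec+IR. As for CDX2, each CAD-KO+IR library lay between sgVec+IR replicate 3 and the other control libraries. The log2 fold change was −0.03 (−0.025, SE 0.517, adjusted p = 0.9999, edgeR), and −0.46 (SE 0.165, adjusted p = 0.407, edgeR) without sgVec+IR replicate 3. Over the 6 libraries EPHB2 was the gene whose log2 CPM was closest to that of CDX2 among 12925 genes (Pearson r = 0.999). Over the 5 libraries without sgVec+IR replicate 3 the correlation was 0.988, with 125 genes closer to CDX2. These points share libraries and the difference between groups, and the values describe likeness only.

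The structural proteins VIL1 and KRT20 were scarce. VIL1 (ENSG00000127831.11, chromosome 2, 218419092 to 218453295), which bundles actin in the brush border, had 0, 3 and 2 counts in CAD-KO+IR and 1, 0 and 0 counts in sgVec+IR. It did not pass the filter and was not tested, and the gene USP37 overlaps it on the other strand. KRT20 (ENSG00000171431.4, chromosome 17, 40875941 to 40885227), a keratin of mature colonic cells, had 8, 19 and 14 counts in CAD-KO+IR and 17, 7 and 46 counts in sgVec+IR. The highest value, 3.24 CPM, was that of sgVec+IR replicate 3, and the other 5 libraries ran from 0.434 to 1.04 CPM. For KRT20 the log2 fold change was −1.06 (SE 0.760, adjusted p = 0.9999, edgeR), and −0.05 (SE 0.570, adjusted p = 0.969, edgeR) without that library.

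**Figure D2:**
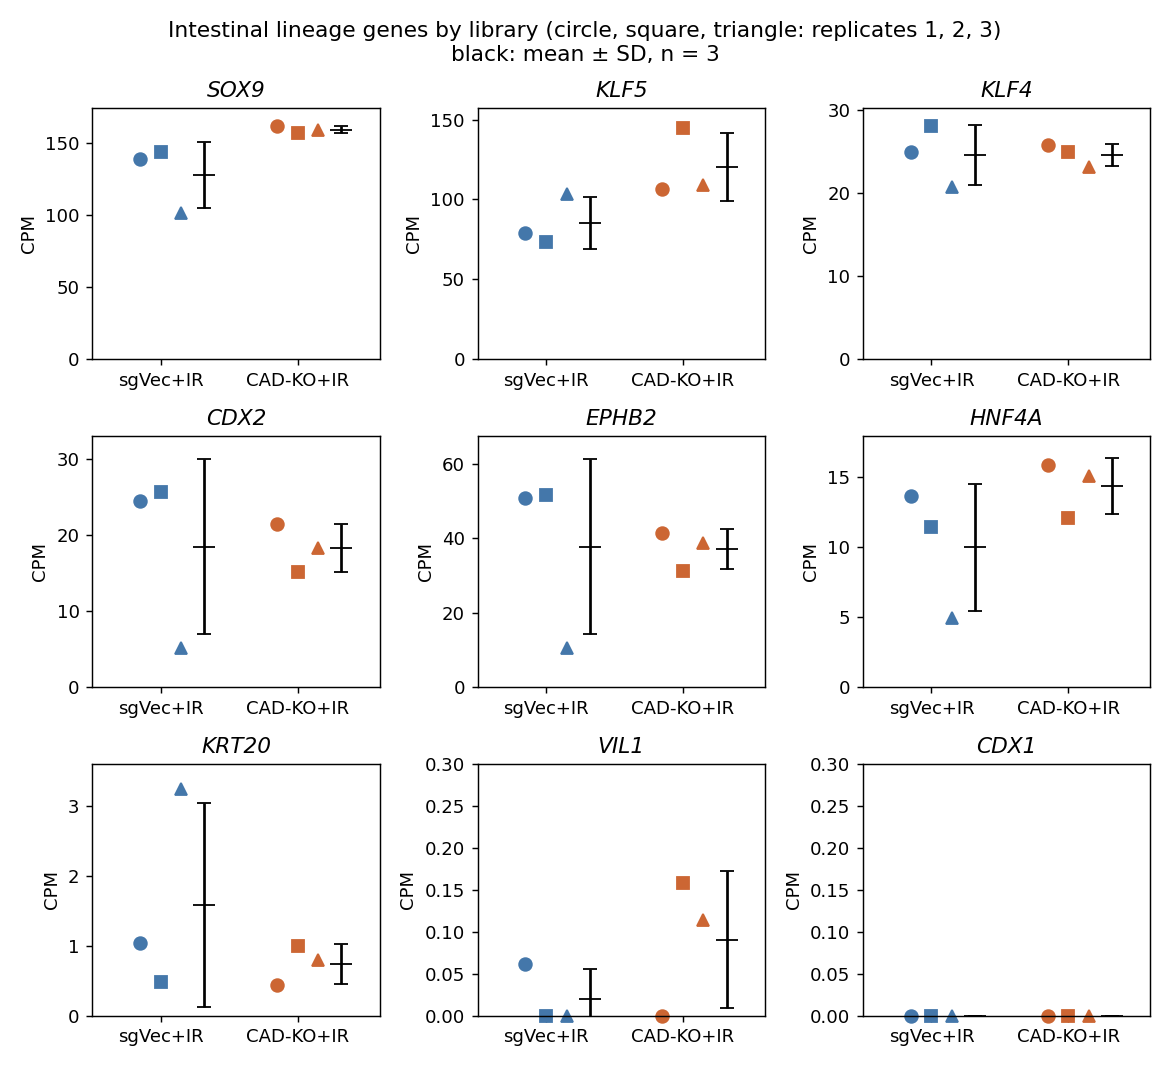
CPM of each lineage gene in each library, 1 panel per gene with its own axis from 0; blue points are sgVec+IR, orange points CAD-KO+IR, and the black bar is the mean ± SD of 3 libraries. The orange points lie above all blue points for SOX9 and KLF5, and the blue triangle (sgVec+IR replicate 3) stands apart for CDX2 (5.22 CPM), EPHB2 (10.7), HNF4A (4.94) and KRT20 (3.24).

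No lineage gene was called as differentially expressed. The same test did not call DFFB, the targeted gene, either (adjusted p = 0.550, edgeR), although DFFB was lower in each CAD-KO+IR library. A gene that was not called may still differ. Calling a gene took a fold change of 1.5 or more together with a Benjamini-Hochberg adjusted p below 0.05, here in the quasi-likelihood test of edgeR over all 12925 genes tested. Of the 7 lineage genes tested 0 were called, and the test called 0.0309% of all genes. With p left unadjusted and the fold change kept, edgeR called 0 of the 7, against 2.18% of all genes (1.42% lower in CAD-KO+IR), and DESeq2 0 of the 7, against 2.13%. DESeq2, limma-voom and voom with sample weights also called 0 of the 7, where DESeq2 called 0.271% and the weighted fit 5.15% of all genes tested (1.64% higher and 3.51% lower). Of the 7 genes 4 had a positive and 3 a negative log2 fold change, with a median of 0.001 against −0.011 over all genes. The groups did not overlap for 2 of the 7, SOX9 and KLF5, against 10.2% of all genes tested. Both were higher in CAD-KO+IR, as were 5.23% of all genes, and 5.01% were lower without overlap.

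For several of these genes the spread came from 1 library. In sgVec+IR replicate 3, the difference in log2 CPM from the mean of replicates 1 and 2 was −2.24 for CDX2, −2.25 for EPHB2, −1.32 for HNF4A, −0.47 for SOX9 and −0.35 for KLF4, and it was 0.45 for KLF5 and 2.01 for KRT20. Among all tested genes these shifts placed CDX2 at the 9.20 and EPHB2 at the 9.11 percentile and KRT20 at the 99.4 percentile. Of all genes tested, 25.3% were more than 2-fold lower in that library and 10.5% more than 2-fold higher. For 5 of the 7 lineage genes it was the lowest of the 6 libraries, as for 41.6% of all genes. Between sgVec+IR replicates 1 and 2 the difference was only −0.06 for CDX2 and −0.02 for EPHB2. CAD-KO+IR replicate 2 moved in the same direction against its replicates 1 and 3 for 6 of the 7 genes, as did 81.4% of all genes, with differences of −0.38 for CDX2, −0.36 for EPHB2 and 0.42 for KLF5. In these libraries the depth, at 14032994 and 19574144 counts, was the lowest and the highest of the 6, and the share of mitochondrial counts was 6.46% and 8.73%, where the other 4 ran from 6.34% to 6.82%. The part of library quality in these shifts was not tested.

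**Figure D3:**
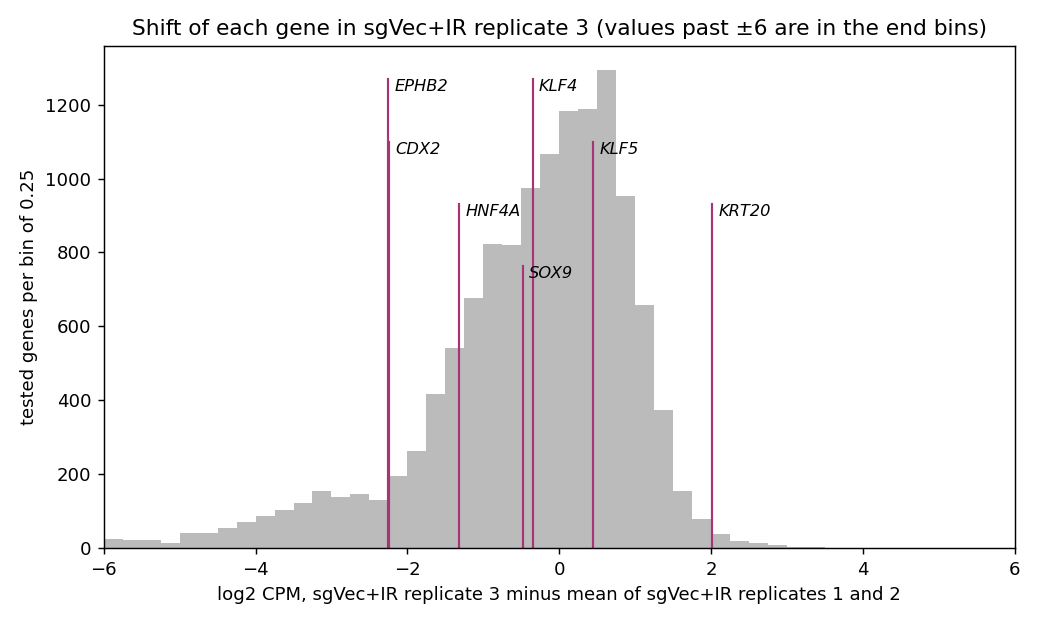
Number of tested genes (grey bars) by their difference in log2 CPM between sgVec+IR replicate 3 and the mean of sgVec+IR replicates 1 and 2, with purple lines at the lineage genes. EPHB2 and CDX2 lie in the lower tail at −2.25 and −2.24 and KRT20 in the upper tail at 2.01, with KLF4, SOX9 and KLF5 near the center.

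Because of this library the comparison was repeated without it, and with weights that let each library count by its agreement with its group. Without sgVec+IR replicate 3 the groups did not overlap for 4 of the 7 genes, with CDX2 and EPHB2 lower and KLF5 and SOX9 higher in CAD-KO+IR, against 45.5% of all genes tested with 3 libraries against 2. None of the 7 was called by edgeR in that comparison, which called 0.167% of all genes. In voom the estimated weights were 0.0404 for sgVec+IR replicate 3, 0.154 for CAD-KO+IR replicate 2 and 1.79 to 6.75 for the other 4 libraries. In that fit 4 of the 7 had an adjusted p under 0.05 at any fold change, against 22.3% of all genes. They were KLF5 (log2 fold change 0.52, SE 0.0658, adjusted p = 0.000430, limma), EPHB2 (−0.37, SE 0.0948, adjusted p = 0.0171, limma), CDX2 (−0.39, SE 0.111, adjusted p = 0.0259, limma) and SOX9 (0.18, SE 0.0542, adjusted p = 0.0328, limma). Each fold change was under 1.5. Among 16 alternatives each gene had an adjusted p that ran from the value given here to 1. The log2 fold change ran from 0.34 to 0.66 for KLF5, from 0.18 to 0.41 for SOX9, from −0.45 to 0.29 for CDX2 and from −0.46 to 0.27 for EPHB2.

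**Figure D4:**
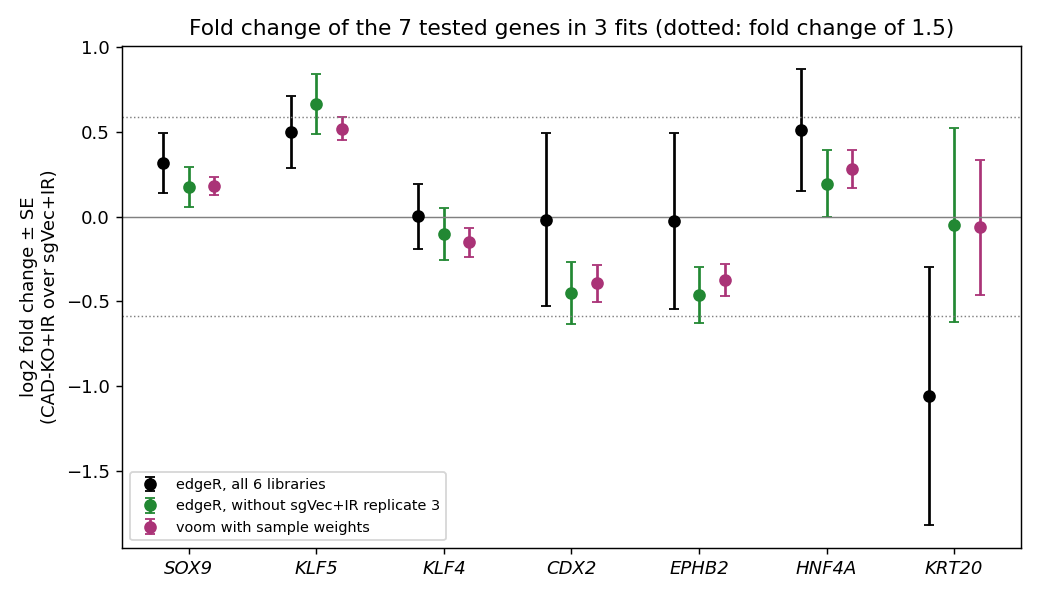
Log2 fold change of CAD-KO+IR over sgVec+IR with its standard error for the 7 tested lineage genes, from edgeR with all 6 libraries (black), edgeR without sgVec+IR replicate 3 (green) and voom with sample weights (purple); dotted lines mark a fold change of 1.5. CDX2 and EPHB2 move from about 0 (−0.02 and −0.03) to −0.45 and −0.46 without that library, and KLF5 stays positive, at 0.50, 0.66 and 0.52.

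The genes around these markers were examined in lists compiled by hand, which include the lineage genes themselves. In edgeR no listed gene was called in either direction. For each list, the number past the unadjusted p with a fold change of 1.5 is also given, against 2.18% of all genes tested. Of 22 intestinal transcription factors 16 were tested, 11 higher and 5 lower in CAD-KO+IR (median log2 fold change 0.19), with 0 at the unadjusted p. Without sgVec+IR replicate 3 this lean was gone, with 8 of 17 higher and 9 lower and a median of −0.03. CDX1, GATA4 and MAF had no count. Of 21 crypt stem and progenitor genes 17 were tested, 5 higher and 12 lower, with a median of −0.07 and 2 genes lower at the unadjusted p. These were EPHB3 and SOX4. Without sgVec+IR replicate 3 again 5 crypt genes were higher and 12 lower, but the median was −0.29. Of 17 brush border and cytoskeletal genes 14 were tested, 7 higher and 7 lower, with a median of −0.05 and 1 gene lower at the unadjusted p. The median over all tested genes was −0.01 with and without sgVec+IR replicate 3.

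Many genes of differentiated functions had few or no counts. Of 26 genes of enterocytes and colonocytes 5 were tested, while 12 never exceeded 3 counts per library, and of 24 genes of the secretory lineage, such as goblet and enteroendocrine cells, 4 were tested, while 13 never exceeded that number. FABP1 (fatty acid binding), TFF3 and AGR2 (goblet cells) had no count. The 5 tested enterocyte genes had a median log2 fold change of −0.59, with 1 higher and 4 lower, and at the unadjusted p 1 was higher (SLC5A1) and 1 lower (CA2). The 4 secretory genes had a median of −0.44, with 1 higher, 3 lower and 0 at the unadjusted p. With so few genes these medians rest on single genes. Without sgVec+IR replicate 3 the median was 0.25 over 7 enterocyte genes and −0.81 over 5 secretory genes. These sets differ from those above, because more genes passed the filter, among them an enterocyte gene with no count in any sgVec+IR library. Over the same 5 enterocyte genes the median without that library was −0.19, and over the same 4 secretory genes −0.77. CA2 and FCGBP were nevertheless above CDX2 in mean CPM, which is not scaled by exon length. CA2 (carbonic anhydrase) was at 46.9 ± 2.77 CPM in CAD-KO+IR and 71.7 ± 2.81 CPM in sgVec+IR. FCGBP (a mucus protein) was at 23.3 ± 6.68 and 33.7 ± 21.2 CPM (SD, n = 3 each). Among 12 epithelial identity genes 3 were higher and 9 lower (median −0.19, 1 lower at the unadjusted p), and among 4 tested markers of other cell types 3 were higher and 1 lower (median 0.08, 1 lower at the unadjusted p). Of the epithelial genes, CDH1 was at 66.7 ± 2.95 CPM in CAD-KO+IR and 97.1 ± 2.90 CPM in sgVec+IR (SD, n = 3 each). Its log2 fold change was −0.54 (adjusted p = 0.9999, edgeR), and −0.61 with sample weights (adjusted p = 4.61e-05, limma), where it was called. Without sgVec+IR replicate 3 the epithelial genes were 2 higher and 10 lower (median −0.36), and the direction of the other markers turned, with 0 higher and 4 lower (median −0.40).

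In the crypt list, SOX4, a transcription factor of progenitors, was at 270, 240 and 255 CPM in CAD-KO+IR and 395, 421 and 407 CPM in sgVec+IR. Its groups were well apart and sgVec+IR replicate 3 lay with the other controls. The log2 fold change was −0.68 (−0.675, SE 0.130, adjusted p = 0.550, edgeR), and DESeq2 called it (−0.67, adjusted p = 0.00328). Over its 16 alternatives the adjusted p of SOX4 ran from 7.99e-06 to 0.9999. EPHB3, a receptor related to EPHB2, EFNB1, a ligand of both, and EFNB2, a related ligand, were named after their values were seen. EPHB3, with sample weights, was called (log2 fold change −0.87, adjusted p = 0.00059, limma). It was at 11.6 ± 2.76 CPM in CAD-KO+IR and 21.1 ± 3.39 CPM in sgVec+IR (SD, n = 3 each; log2 fold change −0.87, SE 0.253, adjusted p = 0.9999, edgeR), without overlap. EFNB1 was at 55.2, 30.9 and 54.9 CPM in CAD-KO+IR and 103, 99.3 and 29.2 CPM in sgVec+IR, the arrangement seen for EPHB2. For EFNB1 the log2 fold change was −0.72 (SE 0.480, adjusted p = 0.9999, edgeR), −1.11 (SE 0.243, adjusted p = 0.240, edgeR) without sgVec+IR replicate 3, and −0.89 (adjusted p = 8.02e-05, limma) with sample weights, where it was called. EFNB2 went the other way, at 23.1 ± 2.02 CPM in CAD-KO+IR and 18.9 ± 4.25 CPM in sgVec+IR (SD, n = 3 each). Its log2 fold change was 0.29 (SE 0.222, adjusted p = 0.9999, edgeR), and 0.42 with sample weights (adjusted p = 0.0077, limma), where it was not called.

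**Figure D5:**
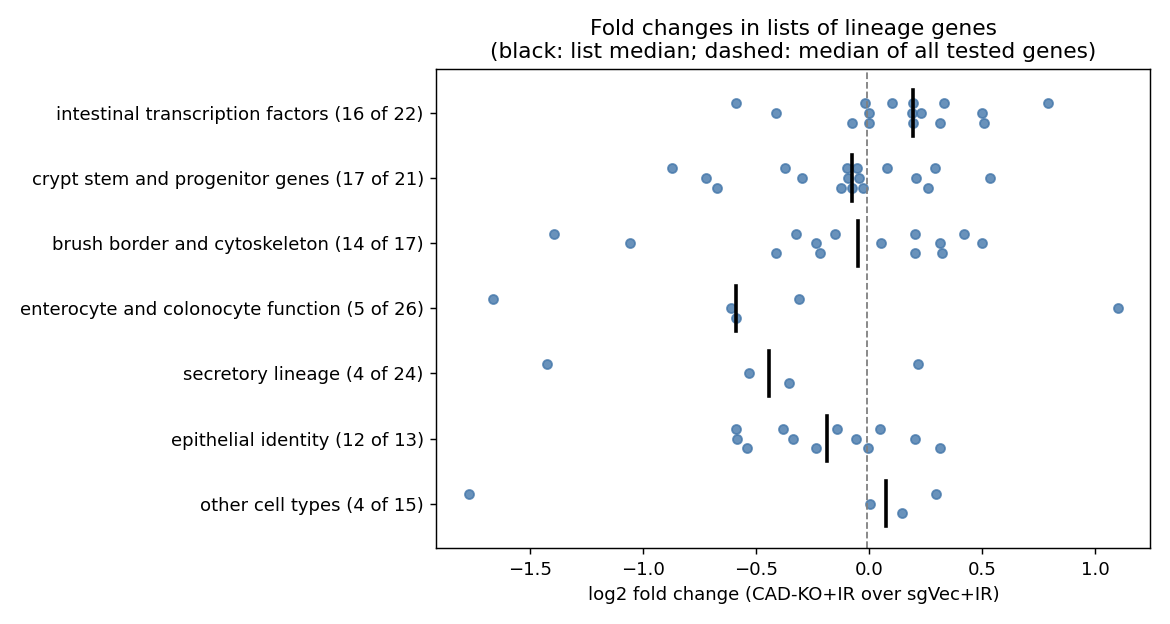
Log2 fold change of CAD-KO+IR over sgVec+IR (horizontal axis) for each tested gene of 7 lists, with the number tested of the number listed; black ticks are list medians and the dashed line is the median of all tested genes (−0.01). The medians of the transcription factor, crypt and brush border lists (0.19, −0.07 and −0.05) lie close to that line with all 6 libraries, though the crypt median is −0.29 without sgVec+IR replicate 3, and those of the enterocyte (−0.59) and secretory (−0.44) lists rest on 5 and 4 genes.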

How the data were processed

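RNA-seq of 6 libraries (3 CAD-KO+IR, 3 sgVec+IR) was analysed. Reads had been cleaned with fastp and assigned to genes with featureCounts. The authors deposited these counts without normalization, 1 column per library, and columns were matched to samples by title. The aligner, annotation and strand setting are not given in the sources used here. The submitters' processing notes list the mouse build mm10, whereas the gene identifiers are human. Gene positions and exon lengths came from GENCODE release 29 (GRCh38), where 19823 of 20020 identifiers matched.

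Genes were kept by filterByExpr (minimum count 10, minimum total 15), which left 12925. R 4.3.3, edgeR 4.0.16 (TMM, quasi-likelihood test, legacy set to FALSE), DESeq2 1.42.0 (all genes) and limma 3.58.1 were used. Log2 CPM used a prior count of 2. The scripts were tested on simulated data with 200 changed genes. Alternatives changed the tool, normalization, filter, threshold and replicate block, or left out each library. Fold changes compare CAD-KO+IR with sgVec+IR. Limits for 0 counts cover counting error only, because PCR copies of a molecule cannot be recognized without molecular identifiers.

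The lineage genes and the lists (transcription factors, crypt, brush border, enterocyte, secretory, epithelial and other cell types) were chosen with earlier results of these data known. Named genes were the lineage genes, DFFB, listed genes among the most abundant 4 of a list or called, and the 2 genes closest to each lineage gene by Pearson correlation. A gene outside this rule is named as such or only as not detected or counted at an unadjusted p. The genes closest to SOX9 are not reported here.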

Additional observations from a re-analysis of the deposited data

How the results depend on the processing

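None of the 7 tested lineage genes was called under any of the 16 alternatives. Over all genes, 1 higher and 3 lower genes in edgeR became 20 and 21 in DESeq2, 212 and 454 with sample weights, 99 and 183 at an unadjusted p in edgeR and 106 and 251 at an unadjusted p in DESeq2. Limma-voom called 0 and 0 (209 at an unadjusted p), the replicate block 0 and 0 (144 at an unadjusted p), and leaving out 1 library gave 0 to 11 higher and 0 to 11 lower, with 11 and 11 without sgVec+IR replicate 3. Sample weights called 1 of 16 transcription factors, 3 of 17 crypt, 1 of 14 brush border, 3 of 5 enterocyte, 3 of 4 secretory, 1 of 12 epithelial and 1 of 4 other genes tested, against 5.15% of all genes, and DESeq2 called 1 crypt gene, against 0.271%. The transcription factor called was HNF4G, with a log2 fold change of 0.605 with sample weights (adjusted p = 0.0459, limma) and 0.23 in edgeR (adjusted p = 0.9999). Deviations of libraries with the same replicate number correlated at 0.468, −0.545 and −0.379. The highest correlation, 0.552, was between CAD-KO+IR replicate 2 and sgVec+IR replicate 3. Because these libraries stand apart within their groups, the values cannot decide whether the replicate numbers pair the libraries.

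CDX2 and EPHB2 changed sign under limma-voom (log2 fold change 0.27 and 0.27) and under the replicate block (0.16 and 0.19). Leaving out 1 library moved CDX2 between −0.45 and 0.29, EPHB2 between −0.46 and 0.27, and KLF4 between −0.10 and 0.11. KLF4, at 0.001, was −0.15 with sample weights, −0.008 with upper quartile scaling, −0.026 by library size only and −0.005 with a minimum of 1 CPM in 3 libraries. The cause of these changes was not tested. The median of the enterocyte genes was −0.19 without sgVec+IR replicate 3 over the genes tested with all 6 libraries. KRT20 did not pass the 1 CPM filter. KRT20, VIL1 and CDX1 had at most 46, 3 and 0 counts per library, so their values are the least precise.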

Other observations

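The genes whose log2 CPM followed the lineage genes most closely depended on sgVec+IR replicate 3. KLF5 was closest to GCLC (Pearson r = 0.999) and TBC1D4 (0.994) over the 6 libraries, and to GCLM (0.9998) and ITGA6 (0.9996) over the 5 without it. GCLC and GCLM encode the subunits of the enzyme that starts glutathione synthesis. CDX2 was closest to EPHB2 and CCM2 over 6 and to CD276 and NPRL2 over 5, HNF4A to MRFAP1 and SNU13 and then to ALDH8A1 and AFG3L2, and KLF4 to GLIS1 and MAGIX and then to CA11 and CACNA1C. EPHB2 was closest to PRPF40B and MED16 over 6 and to ZSCAN20 and OLFM2 over 5, and KRT20 to CNEP1R1 and ABHD17B and then to HERPUD2 and GLRX. Of the 100 closest genes over 6 libraries, 5 for EPHB2, 11 for CDX2, 18 for SOX9, 29 for KLF4, 30 for KLF5, 37 for KRT20 and 41 for HNF4A were also among the 100 closest over 5. The points share libraries, depth and the difference between groups, and the values are a description.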
